A study of Mus musculus with 18 samples.

Results

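Solute carriers are the membrane proteins that move amino acids, sugars, vitamins, nucleosides, ions and metals across the membranes of a cell and its organelles. They are driven by gradients, of ions or of the solute itself, or by exchange rather than by ATP. Their genes were taken here as every gene whose symbol has the standard solute carrier form, a family number followed by the letter a and a member number. The array carried 171 probe sets for 138 such genes, of 12488 probe sets for 8251 genes in all. Each gene was read by its brightest probe set, the one with the highest mean log2 signal. Of the 138 genes, 75 passed a filter that asks that the mean of at least 1 group reach the median of all log2 values, 9.73, and the other 63 were set aside. The genes just inside were Slc22a21, Slc25a44 and Slc5a6, with highest group means of 9.82, 10.07 and 10.14 on the log2 scale. Those just outside were Slc2a5, Slc6a4 and Slc25a3, at 9.67, 9.66 and 9.63.

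All 18 arrays carried RNA of C3H10T1/2, a mouse fibroblast line that can be turned into adipocytes. IDMB was a 24 h treatment with 10 µg/mL insulin, 1 µM dexamethasone (a glucocorticoid), 0.5 µM IBMX (a phosphodiesterase inhibitor) and 1 µM BRL49653 (rosiglitazone, a PPARG agonist). EGF, a growth factor, was present at 10 nM for 24 h. TCDD, which activates the aryl hydrocarbon receptor, was present at 10 nM for 72 h. The groups were IDMB+EGF+TCDD, IDMB+TCDD, IDMB+EGF, IDMB, EGF+TCDD, TCDD, EGF and UT, the last read as cells with none of these. IDMB and UT had 3 arrays each and the other 6 groups 2 each, and mRNA of 6 cultures was pooled for each array. All cells were harvested 24 h after they became confluent, when serum had last been added 72 h before. Everything comes from 1 cell line, and the labels do not say that the pools came from separate experiments, so the p-values measure the spread between these arrays, which may be technical.

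Amino acid carriers couple the uptake of glutamate, glutamine, arginine and the large neutral amino acids to sodium or to exchange, and several are known to rise when a cell is short of amino acids. Glucose enters fibroblasts mainly through facilitative sugar carriers, and adipocytes use an insulin-regulated relative. The carriers of family 25 sit in the inner membrane of mitochondria or in peroxisomes and move nucleotides, acids and carnitine esters. In arrays of cell pools, a lower share of cells of a type and less RNA per cell cannot be told apart.

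Array medians ran from 793.4 to 935.7 in signal intensity, a ratio of 1.18. Of 8 fibroblast markers 7 passed the filter, and the summed intensity of the 8 ran from 208317 to 238275 with IDMB, from 208808 to 264738 with TCDD and from 340543 to 392039 in UT. Of 6 adipocyte markers 4 were higher with IDMB than in UT and 3 were lower with IDMB+EGF+TCDD than with IDMB. Their summed intensity ran from 6526 to 6776 with IDMB+EGF+TCDD, from 17210.0 to 24738 with IDMB, from 14585 to 15536 with TCDD and from 4758 to 11180.0 in UT, and in the mean effect of TCDD 3 of the 6 were lower and none higher. Of 6 macrophage markers 2 passed the filter, Csf1r and Cd14, while Adgre1, Ptprc and Itgam were at or under the floor of 143.5 on 16 arrays each. The summed intensity of the 6 ran from 4928 to 6278 with IDMB, from 10250.0 to 12238 with TCDD and from 6576 to 7218 in UT. Cd14 was higher in the mean effect of TCDD (0.47, adjusted p = 0.0025) and lower in that of IDMB (-0.58, adjusted p = 4.74e-05), and Csf1r was not called in either. Of 4 endothelial markers Pecam1 passed the filter, and of 4 epithelial ones Cdh1, and neither was called in a mean effect. Cdh5 was at or under the floor on 16 arrays and Epcam on 14. The other markers that did not pass the filter were above the floor on most arrays. Kdr was at or under it on 2, Tek on 3, Krt18 on 3, Krt8 on 7 and the macrophage marker Cd68 on 1. The 3′ to 5′ ratio of the control probe sets of actin, a sign of RNA length, ran from 1.80 to 3.80 on arrays with IDMB and from 1.23 to 1.93 on arrays without it. The same ratio for Gapdh ran from 1.43 to 2.86 on arrays with EGF and from 0.854 to 1.73 on arrays without it. The part of cell makeup in the results was not tested.

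The plot of signal on each array shows the 9 carriers on which the results turn. In the mean effect of each treatment Slc23a2, Slc10a6 and Slc25a17 were higher with IDMB, Slc1a6, Slc7a5 and Slc20a1 were lower, Slc38a2 was higher with TCDD, and Slc29a1 and Slc12a2 were higher with EGF.

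**Figure D1:**
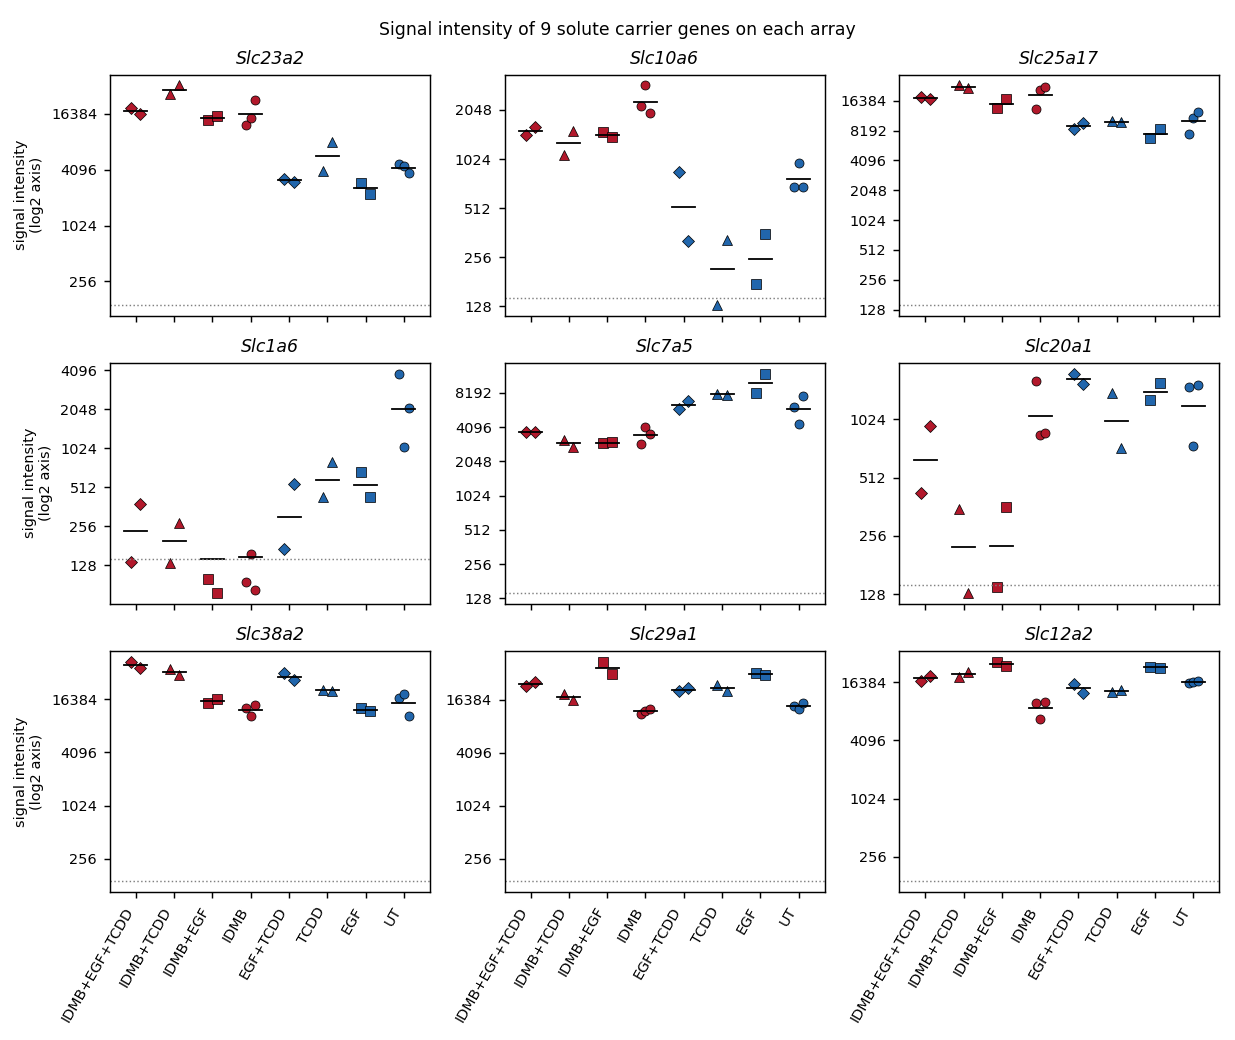
Signal intensity (log2 axis) of 9 solute carrier genes on each of the 18 arrays, by group. Red symbols are groups with IDMB and blue symbols groups without it, with diamonds for EGF+TCDD, triangles for TCDD, squares for EGF and circles for neither; black bars are means of floored log2 values, and the dotted line is the floor of 143.5. The 9 arrays with IDMB lie above the 9 without it for Slc23a2, Slc10a6 and Slc25a17.

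The upstream DNA of 3 of these genes is given because they showed the largest called mean rise with TCDD (Slc38a2) and the largest called mean rise and fall with IDMB (Slc23a2 and Slc1a6). Each window is the 250 bases before the most upstream annotated start in RefSeq on GRCm38.p6, printed 5′ to 3′ on the strand of the gene. Slc23a2 had 2 annotated starts, and the window of the other was not searched. Slc38a2 lies on the minus strand, with its window at chr15:96699729-96699978. Slc23a2 is also on the minus strand, with its window at chr2:132145321-132145570. Slc1a6 lies on the plus strand, with its window at chr10:78780246-78780495. Capitals mark the aryl hydrocarbon receptor core letters GCGTG, which on the other strand read CACGC.
Slc38a2: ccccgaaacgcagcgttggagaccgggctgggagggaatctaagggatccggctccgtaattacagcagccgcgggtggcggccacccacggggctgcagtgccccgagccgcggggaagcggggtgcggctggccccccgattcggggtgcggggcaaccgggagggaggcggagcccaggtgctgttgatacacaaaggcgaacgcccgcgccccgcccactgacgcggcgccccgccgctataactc
Slc23a2: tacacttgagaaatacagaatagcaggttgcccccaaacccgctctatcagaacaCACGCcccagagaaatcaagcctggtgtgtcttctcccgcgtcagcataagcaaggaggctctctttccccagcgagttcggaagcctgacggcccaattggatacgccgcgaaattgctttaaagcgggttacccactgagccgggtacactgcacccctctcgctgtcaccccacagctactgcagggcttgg
Slc1a6: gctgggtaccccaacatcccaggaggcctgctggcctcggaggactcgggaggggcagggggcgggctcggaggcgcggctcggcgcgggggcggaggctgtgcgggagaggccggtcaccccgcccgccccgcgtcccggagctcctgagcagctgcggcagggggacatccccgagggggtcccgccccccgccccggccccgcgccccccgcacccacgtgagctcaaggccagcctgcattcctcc

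The window of Slc23a2 held 1 such core and those of Slc38a2 and Slc1a6 none. None of the 3 held the glucocorticoid receptor palindrome or the amino acid response letters TGATGNAA, searched on both strands. Of the 75 tested carriers 59 had a promoter in the table, and 49.2% of these held the core, against 28.3% of 27025 genes with 1 window each. The 27025 include genes that were not on the array or did not pass the filter. These shares are therefore of unlike sets, and no share over the tested genes was counted. The amino acid response letters stood in 3.39% of the carriers and 3.53% of all genes, and the palindrome in none of the carriers and 0.0037% of all genes. These are matches of letters in 1 window and say nothing about binding. Slc7a5, Slc11a2, Slc7a2 and Slc6a6 are not shown.

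Calls are limma adjusted p-values under 0.05 over all 7134 tested probe sets. With IDMB against UT, 6 carriers were higher and 4 lower of 75, and over all 5436 tested genes 7.16% were higher and 8.09% lower. In the mean effect of IDMB over its 4 backgrounds, 11 carriers were higher and 10 lower, or 28% of them, while 16.3% of all genes were higher and 19.4% lower. The median log2 difference of the carriers in the mean IDMB effect was 0.03, beside -0.04 over all tested genes. Over both directions 35.6% of all tested genes were called in that effect, so the carriers' share was not above the background. With the actin ratio as a covariate, which raised the standard error of this effect by a median of 2.29 times, 5 carriers were called in the mean effect of IDMB (Slc23a2, Slc25a17, Slc25a25, Slc20a1 and Slc7a5).

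EGF, in its mean effect, left 2 carriers higher and 2 lower, against a background of 7.51% and 5.57%, and none of the 4 was called with either control ratio as a covariate. The mean effect of TCDD likewise called 2 higher and 2 lower, against 2.69% and 3.00%. With EGF against UT 1 carrier was higher and 1 lower (background 4.12% and 2.81%). That count was 1 without EGF 2, UT 1, UT 2, IDMB+EGF+TCDD 1 or IDMB+EGF+TCDD 2, and 4 without UT 3. With TCDD against UT 1 carrier was higher and 3 lower (background 3.48% and 3.51%). None was called without UT 2, and 1 without TCDD 1 or TCDD 2. With EGF+TCDD against UT 2 were higher and 2 lower (background 3.35% and 2.74%). The 4 calls were 0 without EGF+TCDD 1, 1 without EGF+TCDD 2 or UT 1, and 2 without UT 2. With only the arrays of the groups compared, or with the Gapdh ratio as a covariate, none was called for TCDD or EGF+TCDD against UT. The comparisons against UT share the UT arrays.

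Adding EGF and TCDD to IDMB, as IDMB+EGF+TCDD against IDMB, called 4 carriers higher and 1 lower (background 3.73% and 3.51%), and 3 in all without IDMB+EGF+TCDD 2 or IDMB 2. The EGF by TCDD interaction, the difference between the effect of EGF with TCDD and without it, called 2 positive and 3 negative (background 2.02% for either sign). It called 2 without IDMB+EGF+TCDD 2, and 3 without EGF 1, EGF+TCDD 1, IDMB+TCDD 1 or IDMB+EGF 1. The interactions of IDMB with EGF and with TCDD called 0 carriers in limma, and 0.166% and 0.129% of all genes in either direction. At an unadjusted p under 0.05 there were 13 and 7 carriers, and without IDMB+EGF+TCDD 1 the interaction with TCDD called 1. In all, 30 of the 75 carriers were called in at least 1 of 11 comparisons and 45 in none, and 8 were called in at least 3. The same shares over all tested genes were not counted, so these counts have no background. In the mean effect of IDMB alone 35.6% of all tested genes were called.

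**Figure D2:**
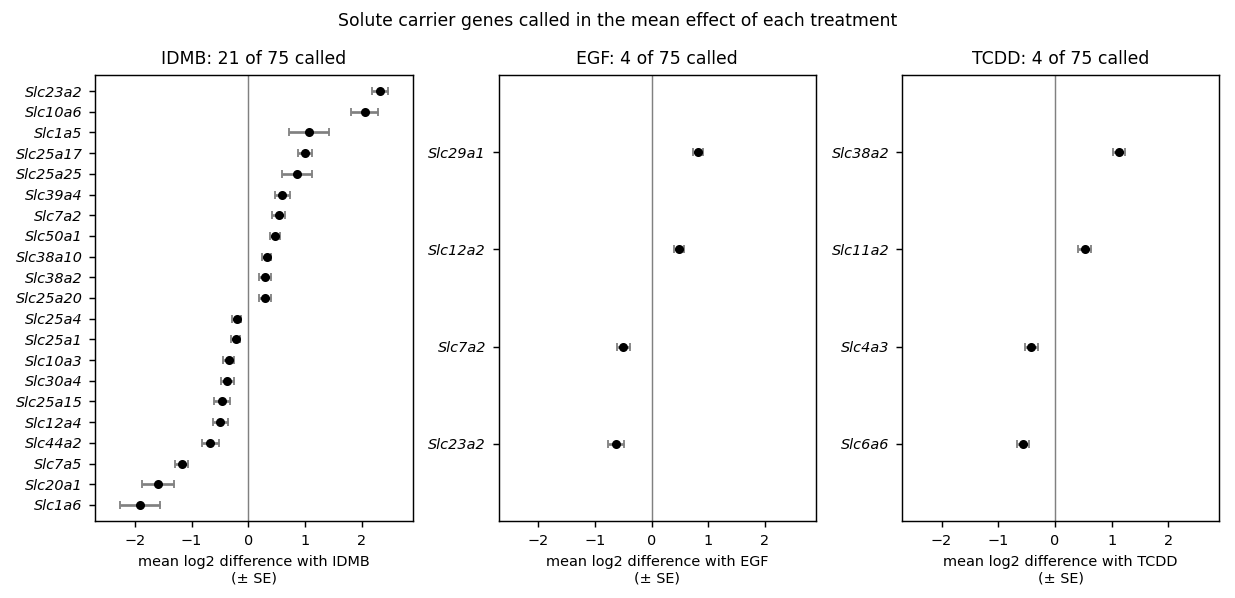
Mean log2 difference (± SE) with IDMB, EGF and TCDD, each averaged over 4 backgrounds, for the carriers called in that effect. IDMB has 21 called carriers, from Slc23a2 at 2.33 to Slc1a6 at -1.91, while EGF and TCDD have 4 each.

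Among amino acid carriers, 21 were on the array and 11 were tested. With IDMB, in the mean effect, 4 were higher (Slc1a5, Slc7a2, Slc38a10 and Slc38a2) and 2 lower (Slc1a6 and Slc7a5), with a median log2 difference of 0.18 over the 11. Over all tested genes 16.3% were higher and 19.4% lower in this effect, with a median of -0.04. Of these called amino acid carriers only Slc7a5 was still called with the actin ratio as a covariate. The mean effect of TCDD had 1 higher (Slc38a2), and that of EGF had 1 lower (Slc7a2). Slc1a6 encodes a sodium-coupled glutamate and aspartate carrier best known from Purkinje cells of the cerebellum. Its signal was 135 and 384 with IDMB+EGF+TCDD, 132 and 273 with IDMB+TCDD, 99.8 and 78.3 with IDMB+EGF and 95.3, 156 and 83.1 with IDMB. In cells without IDMB it was 169.9 and 540.5 with EGF+TCDD, 427 and 805 with TCDD, 672 and 428 with EGF and 3863, 1052 and 2116 in UT. The 3 UT arrays were the highest of all 18, and 6 of the 9 arrays with IDMB were under the floor, among them both IDMB+EGF arrays and 2 of the 3 IDMB arrays.

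With IDMB against UT the log2 difference of Slc1a6 was -3.80 (SE 0.59, adjusted p = 0.000297), and this call held without any 1 array. Slc1a6 passed the filter only through UT, where its signal was highest, so its selection is not independent of these differences. The IDMB calls, here and averaged over backgrounds, held with no filter on low probe sets. Because 2 of the 3 IDMB arrays sat at the floor, the 13.9-fold difference depends on where the floor is set. Averaged over backgrounds, the IDMB effect on Slc1a6 was -1.91, which depends on the floor too, lower in 4 of 4 backgrounds with no overlap of arrays in 3. With the floor at the 10th percentile it was -2.22. With the actin ratio as a covariate its adjusted p was 0.201. With EGF+TCDD against UT, Slc1a6 was lower, with a log2 difference of -2.76 (adjusted p = 0.0257, and 0.0634 with no filter on low probe sets). That value ran from -3.59 to -1.92 when 1 array was left out, and the adjusted p was 0.287 without EGF+TCDD 1, 0.082 without UT 1 and 0.0529 without UT 3. EGF alone and TCDD alone gave -1.93 (adjusted p = 0.0963) and -1.81 (adjusted p = 0.106) against UT, neither of which passed, although no array of either group overlapped UT.

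Slc7a5 is the light chain of the exchanger for large neutral amino acids such as leucine. Its signal was 3698 and 3683 with IDMB+EGF+TCDD, 3162 and 2769 with IDMB+TCDD, 2949.5 and 3046 with IDMB+EGF and 2898, 4091 and 3588 with IDMB. The groups without IDMB had 5912 and 6943 with EGF+TCDD, 7955 and 7944 with TCDD, 8153 and 12116 with EGF and 6144, 4369 and 7673 in UT. Every array with IDMB was below every array without it. Averaged over backgrounds, the IDMB effect was -1.18 (SE 0.12, adjusted p = 1.22e-06), a 2.26-fold fall that was called without any 1 array and with either control ratio as a covariate. The difference was -0.80 on top of EGF+TCDD, -1.43 on top of TCDD, -1.73 on top of EGF and -0.76 against UT. The difference against UT alone (adjusted p = 0.0175) was not called without UT 3 (0.0898), UT 1 (0.054) or IDMB 1 (0.0712).

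Slc3a2, the heavy chain that carries Slc7a5 to the cell surface, had a mean IDMB effect of 0.18 (SE 0.10, adjusted p = 0.189) and did not pass. Its signal was 28964, 20716 and 20974 with IDMB and 24836, 22441 and 23012 in UT, so these groups overlapped. In the other 3 backgrounds the groups did not overlap. The IDMB difference was higher in 2 backgrounds, both with TCDD, and lower in 2, from -0.12 to 0.47. The light chain fell and the heavy chain did not pass, and the difference between them was not tested. Slc1a4, a carrier of alanine, serine and cysteine, had a mean IDMB effect of -0.26 (adjusted p = 0.102). Slc1a5, which carries glutamine, was higher with IDMB by 1.07 (SE 0.35, adjusted p = 0.0271), with signal from 146 to 1295 on arrays with IDMB and from 135 to 597 on arrays without it. It passed the filter only through IDMB+EGF. Its call was lost in 6 of the 18 fits that left out 1 array, with an adjusted p of at most 0.0729. The 6 were those without EGF 2, EGF+TCDD 1, TCDD 1, IDMB+TCDD 2, IDMB+EGF+TCDD 1 or IDMB+EGF 2. It was also lost with no filter on low probe sets (0.0676) and with the actin ratio as a covariate, which gave 2.17 (adjusted p = 0.108).

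Slc38a2 takes up small neutral amino acids with sodium and is known to rise in cells short of amino acids. Its signal was 43511 and 36921 with IDMB+EGF+TCDD, against 14889.6 and 16401 with IDMB+EGF. It was 36229.6 and 31051 with IDMB+TCDD, against 12956, 10516 and 13999 with IDMB. Where IDMB was absent the signal was 32362 and 26851 with EGF+TCDD, against 12910.1 and 11973 with EGF, and 21012 and 20497 with TCDD, against 16948, 18876 and 10525 in UT. In all 4 backgrounds both TCDD arrays were above every array without TCDD. Groups stood apart in all 4 backgrounds, in either direction, for 4 of the 75 carriers. The others were Slc12a2, Slc29a1 and Slc7a2, each with TCDD differences of mixed sign. How often this held over all tested genes was not counted.

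The mean TCDD effect on Slc38a2 was 1.13 (SE 0.11, adjusted p = 1.14e-05), a 2.18-fold rise. The call held without any 1 array and in every other alternative that could be fitted for it. The alternative that could not be fitted was the mean of the gene's 4 probe sets, which did not pass the filter. Whether its other probe sets follow the brightest is therefore not known from these fits. By the brightest probe set, the differences with TCDD in single backgrounds were as follows. It was 1.36 on top of IDMB+EGF, 1.44 on top of IDMB, 1.25 on top of EGF and 0.47 against UT, the last not called (adjusted p = 0.176). IDMB+EGF+TCDD against IDMB gave 1.69 (SE 0.21, adjusted p = 0.000165). EGF+TCDD against UT gave 0.98 (adjusted p = 0.0145), which was not called without EGF+TCDD 1 (0.172) or EGF+TCDD 2 (0.059). The mean IDMB effect, 0.30, was small (adjusted p = 0.0454) and was lost in 12 of the 18 fits that left out 1 array, with an adjusted p of up to 0.107.

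Slc7a2 takes up arginine and other cationic amino acids. Its signal was 1408 and 1385 with IDMB+EGF+TCDD, against 2556 and 2167 with IDMB+TCDD. It was 2105 and 2698 with IDMB+EGF, against 1822, 1857 and 1723 with IDMB. Without IDMB it was 1069 and 664 with EGF+TCDD, against 2095 and 2095 with TCDD, and 1071 and 1336 with EGF, against 1415, 1488 and 1650.5 in UT. The groups of each of these 4 pairs did not overlap, which was so for EGF in no other carrier of the 75. How often that was so over all tested genes was not counted. EGF went with less signal in 3 pairs and with more in the pair IDMB+EGF against IDMB. The mean EGF effect was -0.50 (SE 0.12, adjusted p = 0.0135) and the mean IDMB effect 0.54 (SE 0.12, adjusted p = 0.00235). EGF+TCDD against UT gave -0.85 (adjusted p = 0.0415), a call lost without EGF+TCDD 2 (0.391), EGF+TCDD 1, any 1 UT array, EGF 2, IDMB 3 or either IDMB+EGF+TCDD array.

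Slc6a6 carries taurine, and its brightest probe set had 17719.9 and 14821 with IDMB+EGF+TCDD, against 24259 and 28898 with IDMB+EGF. It had 20154 and 17319 with IDMB+TCDD, against 16861, 27024 and 26206 with IDMB. Its mean TCDD effect was -0.56 (SE 0.11, adjusted p = 0.0055), lower in 4 of 4 backgrounds. A second, dimmer probe set of Slc6a6 that also passed the filter went the other way, by 0.98 (adjusted p = 0.113), so the direction depends on the probe set. Slc6a9, the glycine carrier, was not called, with a mean IDMB effect of -0.23 (adjusted p = 0.202).

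The 24 tested genes of the amino acid response, whose known driver is the transcription factor ATF4, were set beside these carriers. With IDMB, in the mean effect, 11 were lower and 2 higher, with a median log2 difference of -0.24. Over all tested genes 19.4% were lower and 16.3% higher, with a median of -0.04. The 11 were Trib3 at -1.98 and Psat1, of serine synthesis, at -1.88, with Atf3, Atf5, Asns and the tRNA synthetases Aars, Gars, Nars, Iars, Tars and Mars1. Ddit4, an inhibitor of mTORC1 signalling known as a glucocorticoid target, was higher by 2.43, and Mthfd2, of mitochondrial folate metabolism, by 0.51. The list was chosen with earlier results of these data known. How its calls held without 1 array or with a control ratio as a covariate is not given. Over all tested probe sets 1104 were called higher and 1328 lower in the mean effect of IDMB, and 448 in all with the actin ratio as a covariate. With TCDD, 2 of the 24 were lower (Nupr1 and Eif4ebp1) and none was higher. With EGF, 3 were higher (Trib3, Psat1 and Psph) and 2 lower (Ddit4 and Nupr1), again in the mean effects.

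Slc23a2 takes up vitamin C with sodium. Its signal was 18744 and 16507 with IDMB+EGF+TCDD, 26988 and 33089 with IDMB+TCDD, 14177 and 15673 with IDMB+EGF and 12486, 14719.7 and 23232 with IDMB. In cells without IDMB it was 3253 and 3039 with EGF+TCDD, 3997 and 8089 with TCDD, 2958 and 2235 with EGF and 4701, 4465 and 3786 in UT. The lowest array with IDMB was above the highest without it. With IDMB against UT the log2 difference was 1.92 (SE 0.24, adjusted p = 4.58e-05), and the mean IDMB effect was 2.33 (SE 0.14, adjusted p = 4.05e-09), a 5.04-fold rise. Both calls held without any 1 array and in every other alternative. The mean EGF effect was -0.62 (SE 0.14, adjusted p = 0.0113), lower in 4 of 4 backgrounds, and the adjusted p was 0.691 with the actin ratio and 0.987 with the Gapdh ratio as a covariate. Slc19a1, which takes up folate, was not called, with a mean EGF effect of -0.51 (adjusted p = 0.0633).

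Slc44a2 is a choline transporter-like protein. Its signal was 2871, 1215 and 2186 with IDMB, against 5270.5, 4129 and 6079.6 in UT, groups that did not overlap, and the log2 difference was -1.37 (SE 0.26, adjusted p = 0.00164). The mean IDMB effect was smaller, -0.67 (SE 0.15, adjusted p = 0.00274), and its adjusted p was 0.198 with the actin ratio as a covariate. With IDMB+EGF+TCDD it was 3707 and 4384, higher than with IDMB by 1.03 (adjusted p = 0.0419). That call was lost without IDMB 2, IDMB 3 or any 1 array of EGF, EGF+TCDD, IDMB+TCDD or IDMB+EGF+TCDD, with an adjusted p of up to 0.265.

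Slc10a6 encodes a sodium-coupled carrier of sulfated steroids. Its signal was 1432 and 1601 with IDMB+EGF+TCDD, 1089 and 1528 with IDMB+TCDD, 1497 and 1393 with IDMB+EGF and 2152, 2894 and 1969 with IDMB. The groups without IDMB had 851 and 322 with EGF+TCDD, 131 and 327 with TCDD, 175 and 354 with EGF and 693, 973 and 691 in UT. Every array with IDMB was above every array without it. Slc10a6 passed the filter only through groups with IDMB. Its mean IDMB effect was 2.05 (SE 0.23, adjusted p = 4.51e-06), a 4.15-fold rise called without any 1 array, with an adjusted p of 0.083 when the actin ratio was a covariate. With IDMB against UT it was higher by 1.57 (adjusted p = 0.0125, and 0.0591 without IDMB 2). Both IDMB calls held with no filter on low probe sets.

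Without IDMB, Slc10a6 was lower than in UT with TCDD, at a log2 difference of -1.84 (adjusted p = 0.0202), and with EGF, at -1.64 (adjusted p = 0.0392). Neither was called with no filter on low probe sets (0.0607 and 0.113). The TCDD value ran from -2.43 to -1.25 when 1 array was left out and was not called without TCDD 1 (0.231) or UT 2 (0.0889), and 1 of its arrays was under the floor. The EGF call was lost without EGF 1 (0.305), UT 2 (0.142), EGF 2 (0.0967), UT 1 (0.059) or either IDMB+EGF+TCDD array. With EGF+TCDD the difference from UT was -0.57 (adjusted p = 0.541), from -1.27 to 0.13 with 1 array left out. Of the other organic ion carriers, Slc22a5, which carries carnitine, was not called, with a mean EGF effect of -0.65 (adjusted p = 0.0706), and Slc10a3 was lower in the mean effect of IDMB.

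Slc20a1 takes up phosphate with sodium. Its signal was 426 and 941 with IDMB+EGF+TCDD, 353 and 130.2 with IDMB+TCDD, 139.5 and 360.1 with IDMB+EGF and 1616, 845 and 875 with IDMB. Where IDMB was absent the signal was 1763 and 1562 with EGF+TCDD, 1392 and 726 with TCDD, 1296 and 1568 with EGF and 1498, 742 and 1541 in UT. The arrays at 130.2 and 139.5 were under the floor. The IDMB and UT arrays overlapped, while in the other 3 backgrounds every array with IDMB was below those without it. The IDMB difference was -1.39 on top of EGF+TCDD, -2.16 on top of TCDD, -2.65 on top of EGF and -0.17 against UT. The mean effect was -1.59 (SE 0.28, adjusted p = 0.000306) and was called in every alternative, at -2.49 (adjusted p = 0.0167) with the actin ratio as a covariate. The IDMB by EGF and IDMB by TCDD interactions called no carrier. For Slc20a1 they were -0.85 (adjusted p = 0.559) and -0.36 (adjusted p = 0.94). Each is averaged over cells with and without the other agent, between which the change in the IDMB difference had opposite signs. These terms therefore cannot decide whether the IDMB difference varied between single backgrounds, which was not tested.

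**Figure D3:**
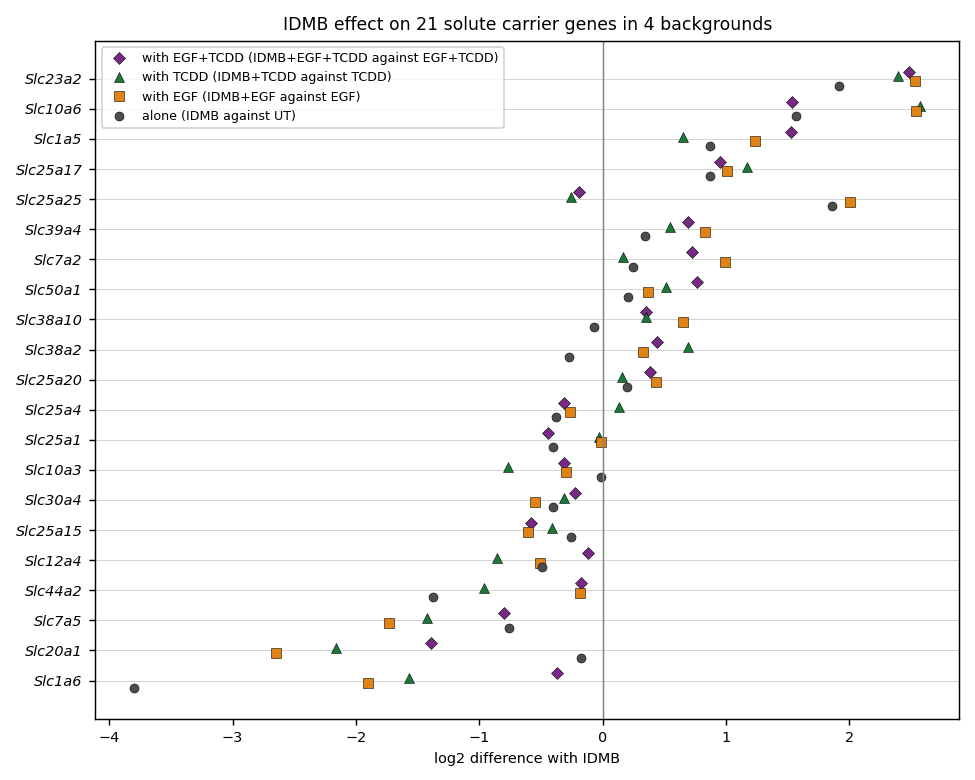
Log2 difference with IDMB in each of 4 backgrounds, for the 21 carriers called in the mean IDMB effect. Of these, 17 had the same sign in all 4 backgrounds, as Slc23a2 between 1.92 and 2.54, while Slc25a25 was at -0.19 and -0.26 with TCDD and at 2.01 and 1.86 without it. The 21 were called on the mean of these same differences, which in part builds in a shared sign.

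Slc29a1 lets nucleosides such as adenosine cross the plasma membrane in either direction. Its signal was 23241 and 26026 with IDMB+EGF+TCDD, against 19097 and 16284 with IDMB+TCDD. It was 44231 and 32135 with IDMB+EGF, against 11190.1, 12316 and 12947 with IDMB. Without IDMB it was 20724 and 22105 with EGF+TCDD, against 24059.8 and 20533 with TCDD, and 33023 and 31476 with EGF, against 13924, 12786 and 14988 in UT. The 4 arrays with EGF and no TCDD were the 4 highest of the 18, and the 6 with neither agent were the 6 lowest.

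The mean EGF effect on Slc29a1 was 0.82 (SE 0.082, adjusted p = 9.03e-05), a 1.76-fold rise called without any 1 array. Its adjusted p was 0.0851 with the actin ratio and 0.323 with the Gapdh ratio as a covariate. EGF against UT gave 1.22 (SE 0.16, adjusted p = 0.00131), and IDMB+EGF+TCDD against IDMB gave 1.02 (SE 0.16, adjusted p = 0.00102), with an adjusted p of 0.109 when the actin ratio was a covariate. TCDD against UT gave 0.68 (adjusted p = 0.0159), not called without TCDD 1 (0.147), UT 2 (0.0733) or TCDD 2 (0.0537). EGF+TCDD against UT gave 0.63 (adjusted p = 0.03), with an adjusted p of 0.189 without EGF+TCDD 2, 0.149 without EGF+TCDD 1, 0.126 without UT 2 and 0.0545 without UT 1. A second probe set of Slc29a1 did not pass the filter, and averaging it in ended all of these comparisons' calls but the mean EGF effect.

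Slc12a2 brings sodium, potassium and chloride into the cell together. Its signal was 16997 and 18914 with IDMB+EGF+TCDD, against 18500.3 and 20998 with IDMB+TCDD. It was 26662 and 24084 with IDMB+EGF, against 10020.4, 6754 and 10308 with IDMB. In cells without IDMB it was 15782 and 12650.1 with EGF+TCDD, against 13092 and 13775 with TCDD, and 23672 and 23189.9 with EGF, against 16223, 16418 and 16796 in UT. The 3 IDMB arrays were the lowest of the 18. IDMB against UT gave -0.89 (SE 0.15, adjusted p = 0.000734), and IDMB+EGF+TCDD against IDMB gave 1.02 (SE 0.17, adjusted p = 0.00216), both called without any 1 array. The second had an adjusted p of 0.252 with the actin ratio and 0.115 with the Gapdh ratio as a covariate. The mean IDMB effect was 0.03 (adjusted p = 0.835), and IDMB went with more signal in the other 3 backgrounds. The mean EGF effect was 0.49 (SE 0.09, adjusted p = 0.0031). Slc12a4, which carries potassium and chloride out, was lower in the mean effect of IDMB.

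In 5 carriers the effect of EGF differed between cells with TCDD and cells without it. For Slc29a1 the EGF difference was 0.48 with IDMB and TCDD and 1.64 with IDMB alone, and without IDMB it was -0.05 with TCDD and 1.22 with neither. The interaction was -1.21 (SE 0.16, adjusted p = 0.00329). For Slc12a2 the 4 EGF differences in the same order were -0.14, 1.52, 0.07 and 0.51, with an interaction of -1.04 (SE 0.18, adjusted p = 0.00695). Both calls held without any 1 array, but with the mean of its probe sets Slc29a1 was at 0.16 (adjusted p = 0.744), the opposite sign. For Slc7a2 the differences were -0.75, 0.41, -1.31 and -0.34, with an interaction of -1.07 (adjusted p = 0.0219) that was not called without IDMB+TCDD 1 (0.0603) or IDMB+EGF+TCDD 2 (0.0542).

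The interaction was positive for Slc20a1 (2.09, adjusted p = 0.0431) and Slc10a6 (1.91, adjusted p = 0.0315). These calls were lost in 12 and 10 of the 18 fits that left out 1 array, with adjusted p up to 0.113 and 0.0907. For Slc20a1 the EGF difference ran from -2.22, with IDMB and no TCDD, to 1.49, with IDMB and TCDD. These extremes rest in part on arrays under the floor (IDMB+EGF 1 at 139.5 and IDMB+TCDD 2 at 130.2). For Slc10a6 it ran from -1.64 with neither to 1.27 with TCDD, both without IDMB, and TCDD 1 was under the floor. With the Gapdh ratio as a covariate none of the 5 was called, with adjusted p from 0.49 to 0.77, and Slc20a1 was at 1.15 and Slc10a6 at 1.04. That ratio was from 2.13 to 2.86 with EGF and TCDD together, from 1.43 to 2.47 with EGF and no TCDD, from 0.854 to 1.08 with TCDD and no EGF, and from 1.19 to 1.73 with neither, and the covariate raised the standard error of this contrast by a median of 1.66 times.

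**Figure D4:**
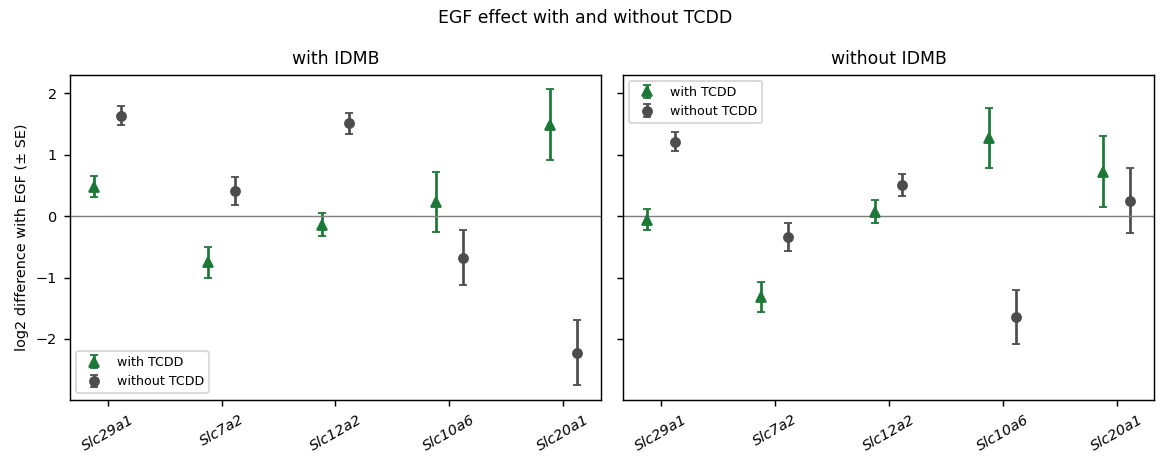
Log2 difference with EGF (± SE) in cells with TCDD (triangles) and without it (circles), with IDMB on the left and without it on the right, for the 5 carriers with a called EGF by TCDD interaction. For Slc29a1 the difference is 0.48 with TCDD and 1.64 without it in cells with IDMB, and -0.05 and 1.22 in cells without IDMB.

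Of 20 family 25 carriers on the array 14 were tested. In the mean effect of IDMB 3 were higher and 3 lower, with a median log2 difference of 0.11, beside 16.3% higher, 19.4% lower and a median of -0.04 over all tested genes. In the mean effects of EGF and TCDD none was called, and 2 were lower in TCDD against UT. Slc25a17 sits in the peroxisome membrane and exchanges cofactors such as coenzyme A. Its signal was 18102 and 17120.5 with IDMB+EGF+TCDD, 23412 and 22004 with IDMB+TCDD, 13717 and 17176 with IDMB+EGF and 13613, 21003 and 22613 with IDMB. The groups without IDMB had 8465 and 9786 with EGF+TCDD, 10146 and 9985 with TCDD, 6888 and 8422 with EGF and 7589.8, 11049.7 and 12595 in UT. No array with IDMB was as low as the highest without it. The mean IDMB effect was 1.00 (SE 0.12, adjusted p = 6.48e-06), a 2-fold rise called in every alternative.

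Slc25a25 exchanges ATP-magnesium for phosphate under the control of calcium. Its signal was 3819.9 and 6451 with IDMB+EGF and 3408, 4048 and 3077 with IDMB, against 1829 and 830.4 with EGF and 1095, 1380.5 and 582 in UT. With TCDD present it was 2923 and 776 with IDMB+EGF+TCDD and 2212 and 1731 with IDMB+TCDD, against 1121 and 2639 with EGF+TCDD and 2037 and 2683 with TCDD. With and without IDMB the arrays stood apart in the absence of TCDD and overlapped in its presence, a difference whose test did not pass. IDMB against UT gave 1.86 (SE 0.46, adjusted p = 0.0108), with an adjusted p of 0.0569 without UT 3. The mean IDMB effect was 0.86 (adjusted p = 0.0214) and was not called without EGF 2, EGF+TCDD 1, TCDD 1, IDMB+EGF+TCDD 1 or IDMB+EGF 2, with an adjusted p of at most 0.0665, nor with no filter on low probe sets (0.0831). With the actin ratio as a covariate it was 2.41 (adjusted p = 0.00294), and IDMB against UT was 3.17.

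The carriers that exchange ADP for ATP across the inner membrane are Slc25a4 and Slc25a5. Slc25a4 had 34502 and 29023 with TCDD, against 47426, 55898 and 48560.3 in UT, and was lower, with a log2 difference of -0.67 (adjusted p = 0.011), not called without TCDD 2 (0.113) or UT 2 (0.0574). Slc25a5 had 5183 and 4492 with IDMB+EGF+TCDD, against 7049, 9912 and 8801 with IDMB. It was lower, with a log2 difference of -0.82 (adjusted p = 0.0331), with an adjusted p of 0.234 without IDMB+EGF+TCDD 2, 0.115 without IDMB 2, 0.108 without IDMB+EGF+TCDD 1 and 0.0718 without IDMB 3. A second, dimmer probe set of Slc25a5 that passed the filter gave -0.16 (adjusted p = 0.785), and the mean of its probe sets gave -0.30 (adjusted p = 0.475). Slc25a11, the oxoglutarate and malate carrier, had 4265 and 4325 with TCDD, against 7929.8, 7053 and 6680.5 in UT. It was lower, with a log2 difference of -0.75 (adjusted p = 0.0319), with an adjusted p from 0.0802 to 0.152 without UT 1, UT 2, TCDD 1 or TCDD 2. The citrate carrier Slc25a1 was lower in the mean effect of IDMB, at -0.22 (adjusted p = 0.0475) and so was Slc25a4, at -0.20 (adjusted p = 0.0459), calls lost in 15 and 13 of the 18 fits that left out 1 array. Slc25a15, the ornithine carrier, was also lower. Slc25a20, the carnitine and acylcarnitine carrier, was higher, a call lost in 12 such fits.

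For metals, 10 zinc carriers and 3 carriers of copper, iron and other metals were tested. Slc39a4, which brings zinc into the cell, was higher in the mean effect of IDMB by 0.60 (SE 0.13, adjusted p = 0.00213), in 4 of 4 backgrounds, with an adjusted p of 0.448 when the actin ratio was a covariate. Slc30a4, which moves zinc out of the cytosol, was lower in that effect, a call lost without EGF 2 (0.0551), IDMB+EGF+TCDD 2 (0.0588) or IDMB+EGF 1 (0.0529), with arrays scaled to the same median (0.0747) and with the mean of its probe sets (0.336). Slc39a1 did not pass in any mean effect. Slc11a2, an iron and divalent metal importer, had 4449 and 7068 with IDMB+EGF+TCDD, against 3467 and 2889 with IDMB+EGF, and 5414 and 5746 with EGF+TCDD, against 3473 and 3808 with EGF. In these pairs the groups did not overlap. They did in the others, with 3750.1 and 4736 with IDMB+TCDD, against 4248, 3097 and 3297 with IDMB, and 5049.5 and 6619 with TCDD, against 4406, 5141 and 3799.5 in UT. The mean TCDD effect was 0.52 (SE 0.12, adjusted p = 0.0135), higher in 4 of 4 backgrounds and called in every alternative, and a second probe set gave 0.43 (adjusted p = 0.0248). Slc31a1, the copper importer, was higher with IDMB than in UT by 0.73 (adjusted p = 0.0402). That call was lost without UT 2, UT 3, IDMB 1, IDMB 2 or either EGF+TCDD array, with an adjusted p of up to 0.159, and its second probe set gave 0.34 (adjusted p = 0.292).

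Of 4 bicarbonate, proton and anion exchangers tested, 1 was called with IDMB against UT and 1 in the mean effect of TCDD. Slc4a4, which carries sodium and bicarbonate together, had 1707, 1448 and 705 with IDMB, against 422, 628 and 92.8 in UT. The UT array at 92.8 was under the floor, and Slc4a4 passed the filter only through IDMB, its highest group. The log2 difference was 1.84 (SE 0.57, adjusted p = 0.0401). The call was lost with no filter on low probe sets (0.0828), with the actin ratio as a covariate (0.32) and with only the arrays of the groups compared (0.101). The difference ran from 1.22 to 2.29 when 1 array was left out. It was not called without UT 3 (0.181), IDMB 1 (0.136), IDMB 2 (0.12), UT 1 (0.0599), TCDD 1 (0.0503) or TCDD 2 (0.05), nor with the floor at the 10th percentile (0.0675). Slc4a3, which exchanges chloride for bicarbonate, was lower in the mean effect of TCDD, at -0.42 (adjusted p = 0.0498), a call lost in 16 of the 18 fits that left out 1 array.

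Of 7 sugar carriers on the array 3 were tested, and the carrier of insulin-driven uptake, Slc2a4, was set aside. Slc2a1, the basal glucose carrier of fibroblasts, had 1567 and 940.5 with IDMB+EGF+TCDD, 1239 and 1364 with IDMB+TCDD, 1415 and 1594 with EGF+TCDD and 1618 and 2525 with TCDD. Without TCDD it had 1430.5 and 1448 with IDMB+EGF, 1219.8, 3173 and 1922 with IDMB, 2237 and 2181 with EGF and 2049, 2313 and 2619 in UT. Its mean TCDD effect, -0.40 (SE 0.17, adjusted p = 0.214), did not pass, although the difference was negative in 4 of 4 backgrounds, and groups overlapped in 3 of them. Its mean IDMB effect was -0.45 (adjusted p = 0.0523). Slc50a1, a small sugar carrier, was higher in the mean effect of IDMB.

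The 15 tested genes of glycolysis and lactate metabolism were set beside Slc2a1. With TCDD, in the mean effect, 11 were lower and none higher, with a median log2 difference of -0.76. Over all tested genes 3.00% were lower and 2.69% higher, with a median of 0.01. The list was chosen with earlier results of these data known, so its contrast with this background is a description and no independent test. The 11 lower genes were Hk2, Pfkl, Pfkp, Aldoa, Tpi1, Pgk1, Pgam1, Eno2, Ldha, Ldhb and Pdk1. Aldoa, which splits fructose bisphosphate, was at -0.93 (SE 0.13, adjusted p = 0.000474), and Pgk1, which makes ATP, at -0.94 (SE 0.11, adjusted p = 7.65e-05). The count of those lower was between 7 and 11 when 1 array was left out, with 7 without EGF 1, 11 with the Gapdh ratio and 6 with the actin ratio as a covariate. The 4 that did not pass were Hk1, Pfkm, Pfkfb3 and Pkm. In the mean effect of IDMB 2 were higher, Ldhb at 1.70 and Hk2 at 0.53, and 5 lower, and in that of EGF 1 was higher (Pfkp) and 1 lower (Hk2).

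**Figure D5:**
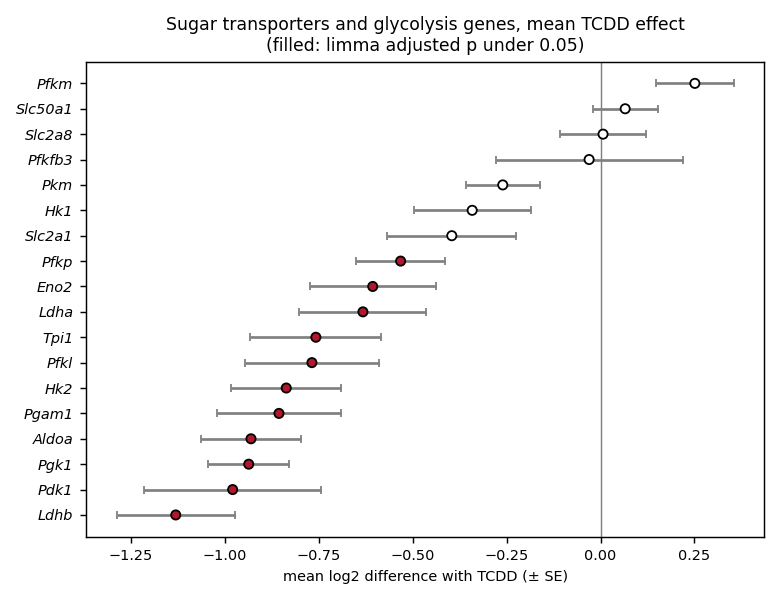
Mean log2 difference with TCDD (± SE) for the 15 tested glycolysis genes and the 3 tested sugar carriers. Filled points are called: 11 glycolysis genes lie between -1.13 and -0.53, while Slc2a1, at -0.40, Slc2a8 and Slc50a1 are not called.

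Partners that many carriers depend on, such as the sodium pump that keeps the sodium gradient and the chaperones of monocarboxylate carriers, made up 10 tested genes. In the mean effect of IDMB 5 were higher and 2 lower, with a median log2 difference of 0.27, beside 16.3% higher, 19.4% lower and a median of -0.04 over all tested genes. This list too was chosen with earlier results of these data known. How its calls held without 1 array or with a control ratio as a covariate is not given. Emb, a chaperone of monocarboxylate carriers, was higher by 2.10, and the proton pump subunit Atp6v0d1 by 1.09. The sodium pump subunits Atp1b3 and Atp1b1 and the scaffold Slc9a3r1 were higher by 0.63, 0.34 and 0.56. The sodium pump regulators Fxyd5 and Fxyd1 were at -1.71 and -0.87. With EGF, Bsg, another such chaperone, and Atp6v0d1 were lower, and with TCDD Emb was lower, again in the mean effects.

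In the mean effect of IDMB, 17 of the 21 called carriers had the same sign in all 4 backgrounds, beside 24 of all 75 tested. The 21 were called on the mean of these same 4 differences, so a shared sign is in part built into their choice. The share over all tested genes was not counted. The exceptions were Slc25a25, Slc25a4, Slc38a10 and Slc38a2. The 63 carriers set aside included Slc16a1 for lactate, Slc27a1 for fatty acids, Slc7a11 for cystine and Slc30a1 for zinc, which did not pass the filter. In 3 of the 63 every array was at or under the floor. Of the carriers tested, 7 had at least 1 array at or under it.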

How the data were processed

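The deposited values are signal intensities on a linear scale, 1 column per array, per the file headers and the labels. They had a trimmed mean of 2498.7 to 2499.5 on every array (outer 2% left out on either side), so they were scaled before deposit, and the software behind them was not given in the sources used here. A floor of 143.5, the 20th percentile over every array, was applied before taking log2. Gene symbols came from the platform annotation: of 12488 probe sets 10833 had 1 symbol, 396 several and 1259 none or were controls, including 66 control probe sets. All 138 carrier symbols matched RefSeq by Entrez identifier.

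The fit (limma 3.58.1, R 4.3.3) gave each group a mean over all 18 arrays, eBayes with a trend (10 residual and 6.03 prior degrees of freedom) and Benjamini-Hochberg adjustment over the 7134 probe sets that passed the filter, tested on simulated data. Mean effects weight 4 backgrounds equally. Every adjusted p is from limma. All 8 groups share the spread, and precision is limited by the number of arrays.

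The members and gene lists were chosen with earlier results of these data known. Carriers given with values are Slc1a6, Slc7a5, a list of well-known carriers, up to 10 called ones with the largest difference in either direction in a comparison, and up to 4 in either direction in an interaction. Other called carriers are named with their direction.

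No array was a copy of another of its group: 1 to 6 of 12488 values were identical between replicates, and replicates correlated at 0.922 to 0.960. Alternatives were the scaling, floor, filter, probe set choice, variance trend, control ratios as covariates, a replicate block, fewer groups in the fit and leaving out each array.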

Additional observations from a re-analysis of the deposited data

Results flagged for a closer look

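In 5 solute carriers the effect of EGF differed between cells with and without TCDD, by limma's interaction term averaged over cells with and without IDMB. The log2 interaction was -1.21 for Slc29a1 and -1.04 for Slc12a2, with the EGF difference nearer 0 in cells with TCDD. With the mean of its probe sets Slc29a1 was at 0.16 (adjusted p = 0.744), the opposite sign. It was -1.07 for Slc7a2, whose EGF difference was more negative in cells with TCDD, and it was 2.09 for Slc20a1 and 1.91 for Slc10a6, both positive. All 5 lost their call with the Gapdh 3′ to 5′ ratio as a covariate.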

How the results depend on the processing

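Of 59 called pairs of carrier and comparison, 32 were called in every fit that left out 1 array, 11 in every other alternative and 11 in both. Counts of carriers called, with 1 array left out, ran from 1 to 4 for EGF against UT (2 with all arrays), 0 to 5 for TCDD against UT (4), 0 to 4 for EGF+TCDD against UT (4), 7 to 12 for IDMB against UT (10) and 3 to 7 for IDMB+EGF+TCDD against IDMB (5). They ran from 4 to 6 for the mean EGF effect (4), 16 to 22 for the mean IDMB effect (21), 3 to 5 for the mean TCDD effect (4) and 2 to 6 for the EGF by TCDD interaction (5), and 0 to 1 for IDMB by TCDD. With the beta-actin 3′ to 5′ ratio as a covariate the counts were 1 for EGF against UT, 0 for EGF+TCDD against UT, 6 for IDMB against UT, 1 for IDMB+EGF+TCDD against IDMB, 0 for the mean EGF effect, 5 for the mean IDMB effect and 2 for the EGF by TCDD interaction. This covariate raised the standard error of the mean IDMB effect by a median of 2.29 times. With the Gapdh ratio they were 0 for EGF+TCDD against UT, TCDD against UT, the mean EGF effect and the EGF by TCDD interaction, and 2 for IDMB+EGF+TCDD against IDMB. It raised the standard error of the mean EGF effect by 2.53 times. With only the arrays of the groups compared they were 1 for EGF against UT, 0 for EGF+TCDD against UT and TCDD against UT, 6 for IDMB against UT and 2 for IDMB+EGF+TCDD against IDMB. With no filter on low probe sets they were 0 for EGF+TCDD against UT, 3 for IDMB+EGF+TCDD against IDMB and 1 each for the interactions of IDMB with EGF and with TCDD. With the mean of all probe sets of a gene they were 1 for EGF against UT, 2 for EGF+TCDD against UT and 2 for IDMB+EGF+TCDD against IDMB, and without a variance trend 3 for the last. The mean of all probe sets also reversed Slc6a6 in the mean TCDD effect (0.21) and Slc29a1 in the EGF by TCDD interaction (0.16). Scaling to the same median, quantile normalization and a floor at the 10th percentile moved no count by over 1.5 times. The cause of these changes was not tested.

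Replicate numbers were not taken to pair the arrays: of 28 pairs of groups 9 had same-numbered deviations correlated above 0.1 (range -0.10 to 0.28). With the replicate block 5 carriers were called for EGF against UT and 8 for the mean EGF effect, and no other count moved by over 1.5 times.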
